A study of Mus musculus with 13 samples.

Results

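Transcripts of 10 astrocyte genes were followed in RNA from translating ribosome affinity purification (TRAP) and in the hindbrain RNA it started from. The genes were *Slc1a2*, *Slc1a3*, *Glul*, *Aqp4*, *Gja1*, *Gfap*, *S100b*, *Aldh1l1*, *Sox9* and *Aldoc*. They were picked by symbol, and 10 of 10 were found among the 12009 genes of the count table. Every mouse carried the *Slc6a2*-*eGFP*/*Rpl10a* transgene, in which a bacterial artificial chromosome with the promoter of the norepinephrine transporter (NET, gene *Slc6a2*) drives a ribosomal protein fused to enhanced green fluorescent protein. The transgene was hemizygous on a C57BL/6 background. Mice 6 to 8 months old received DSP-4, a neurotoxin taken up through NET, at 50 mg/kg on days 1 and 7, or saline, and hindbrains without cerebellum were collected on day 14. The study asked how the toxin altered mRNA in noradrenergic neurons of the locus coeruleus (LC). Each library was made from 2 pooled mice. The groups were DSP-4 TRAP (6 libraries, replicates 1, 2, 3, 7, 8 and 9), saline TRAP (3 libraries, replicates 4, 6 and 12), DSP-4 input (2 libraries, replicates 2 and 7) and saline input (2 libraries, replicates 5 and 12).

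Astrocytes take up glutamate and potassium released by neurons, supply lactate and glutamine, and wrap blood vessels with endfeet that carry water channels. In the hindbrain they surround the LC neurons, and they respond to injury by enlarging and making more of the filament protein GFAP. Since TRAP draws down ribosomes that carry the tagged protein, RNA of cells without the transgene is not its target, although the counts do not record which cell a transcript came from. In such bulk samples, fewer cells of a type and less RNA per cell cannot be told apart.

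The libraries held 17491357 to 29199550 counts. Noradrenergic markers, the check of the pulldown and of the labelled cell type, were 8 of 8 higher in saline TRAP than in saline input, with a median log2 fold change of 2.62 and *Slc6a2* at 4.74. Their summed level was 805 to 950 CPM (counts scaled to a common library size) in saline TRAP, 472 to 698 CPM in DSP-4 TRAP and 160 to 216 CPM in the inputs. DSP-4 TRAP replicates 2 and 3 stood apart, with 20 and 22 genes without a single count, where other libraries had 0 to 6. The mitochondrial share of counts was 0.53% to 2.64% in TRAP libraries and 4.66% to 6.77% in inputs.

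Of the 10 astrocyte genes, 4 were higher in saline TRAP than in saline input, namely *Slc1a2*, *Sox9*, *Aqp4* and *Gja1*. *Gfap* was lower, and the other 5 did not pass the test. The test was edgeR's quasi-likelihood test at a false discovery rate (FDR) under 0.1, with Benjamini-Hochberg adjustment over 12009 genes, and of all genes 35.1% were called, 19.5% higher and 15.7% lower. The median log2 fold change was 0.37 over the 10 genes and -0.02 over all genes. In DSP-4-treated mice 5 of the 10 were higher, the same 4 and *Aldh1l1*, and *Gfap* was again lower, against 51.1% of all genes called, 27.3% higher and 23.8% lower. The median was 0.51 over the 10 genes and -0.01 over all genes. The count of genes lower, 1 of 10, was below the share of all genes in both treatments, and the count higher was above it, neither of which was tested over 10 genes.

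**Figure D1:**
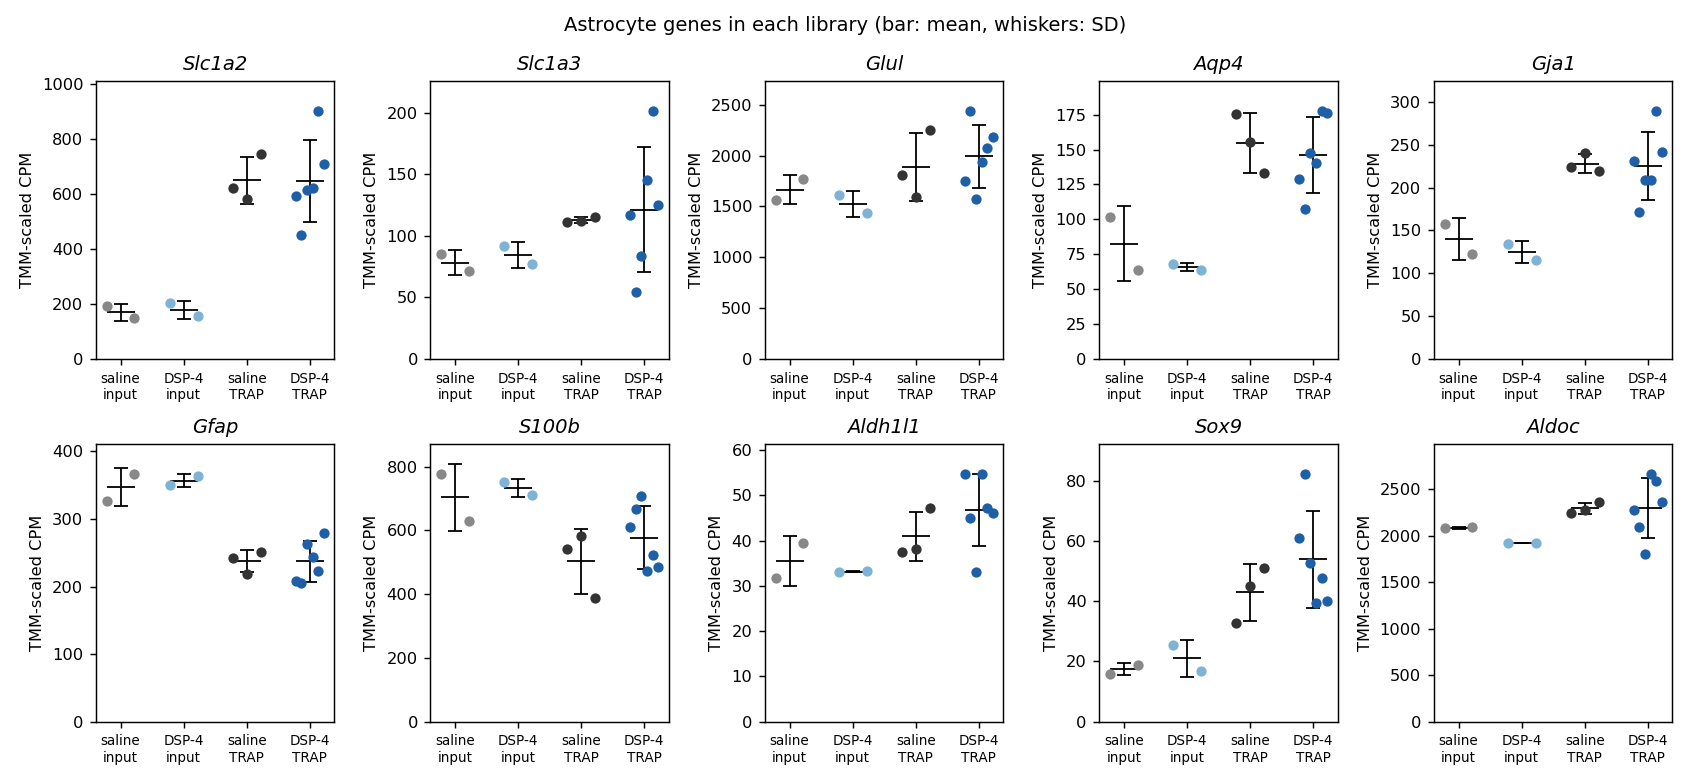
Level of each astrocyte gene by library, in CPM scaled with TMM factors (vertical axes from 0), for saline input (2 libraries), DSP-4 input (2), saline TRAP (3) and DSP-4 TRAP (6); points are libraries, bars means and whiskers SD. *Slc1a2*, *Aqp4*, *Gja1* and *Sox9* lay higher in each TRAP library than in the inputs of the same treatment, *Gfap* and *S100b* lay lower, and DSP-4 and saline points of the same fraction overlapped for all genes except *Aldoc* in the inputs.

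Upstream sequence is printed for *Slc1a2* and *Gja1*, which were both higher in TRAP, and for *Gfap*, which was lower. These 3 were chosen after their values were seen. Each run is the 250 bases before the RefSeq start site, 5′ to 3′ on the gene's strand (RefSeq, build GRCm38.p6), at chr2:102706188-102706437 on the plus strand for *Slc1a2*, chr10:56377050-56377299 on the plus strand for *Gja1* and chr11:102897201-102897450 on the minus strand for *Gfap*. Capitals mark matches to 5 motifs searched on both strands, which were the TATA box (TATAAA), the GC box (GGGCGG), the half-site of nuclear factor I (TTGGC), the STAT site (TTCNNNGAA) and the AP-1 site (TGANTCA). In these 3 windows no match overlapped another. Against the GENCODE gene models the start sites of *Slc1a2* and *Gfap* are internal, 47779 and 3712 bases downstream of the gene's 5′ end, and that of *Gja1* lies 30 bases upstream of it.
Slc1a2: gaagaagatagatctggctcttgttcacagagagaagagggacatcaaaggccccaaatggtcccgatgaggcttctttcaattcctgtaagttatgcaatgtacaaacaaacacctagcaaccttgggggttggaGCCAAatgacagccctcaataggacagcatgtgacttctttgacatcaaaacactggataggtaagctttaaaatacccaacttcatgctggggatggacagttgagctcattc
Gja1: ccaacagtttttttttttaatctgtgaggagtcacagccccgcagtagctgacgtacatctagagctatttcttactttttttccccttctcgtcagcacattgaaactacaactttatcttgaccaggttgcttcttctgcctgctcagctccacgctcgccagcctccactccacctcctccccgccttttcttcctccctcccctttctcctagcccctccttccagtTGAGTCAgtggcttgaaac
Gfap: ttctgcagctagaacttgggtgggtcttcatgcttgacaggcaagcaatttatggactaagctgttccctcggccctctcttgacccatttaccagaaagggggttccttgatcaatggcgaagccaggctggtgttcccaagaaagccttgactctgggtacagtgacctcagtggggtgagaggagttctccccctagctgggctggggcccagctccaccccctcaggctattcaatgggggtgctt
*Slc1a2* held 1 half-site of nuclear factor I, read on the opposite strand, and 41.5% of 32851 promoters of this length hold one. *Gja1* held 1 AP-1 match, which 6.75% of promoters hold. None of the 5 letter strings stood in the *Gfap* window. The shares of promoters with the other motifs were 12.4% for the TATA box, 32.7% for the GC box and 7.02% for the STAT site. Of the 10 genes, 8 matched the promoter table, and *Aqp4* and *Sox9* did not.

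Glutamate handling came first. *Slc1a2* (chr2:102658659-102790784, plus strand, GRCm38) encodes GLT-1, the transporter that clears most synaptic glutamate in the forebrain. It stood at 621, 584 and 747 CPM in saline TRAP and at 193 and 148 CPM in saline input. In DSP-4 TRAP the lowest, median and highest values were 453, 619 and 903 CPM, against 202 and 155 CPM in DSP-4 input. TRAP and input did not overlap in either treatment. The log2 fold change of TRAP over input was 1.93 (SE 0.26, edgeR FDR 0.000199) in saline and 1.86 (SE 0.24, edgeR FDR 3.13e-05) in DSP-4. Among all 12009 genes the saline value lay at the 99.4th percentile. *Slc1a2* passed in every fit that left out 1 library and with the replicate number as a block (2.35 in saline, edgeR FDR 0.0352).

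*Slc1a3* (chr15:8634124-8710764, minus strand) encodes GLAST, the transporter that prevails in cerebellar astrocytes and is also made by radial glia. It varied most among the DSP-4 TRAP libraries, from 54.5 CPM in replicate 2 through a median of 121 CPM to 201 CPM in replicate 8, a coefficient of variation of 42.0%. Saline TRAP was tight by comparison, at 111, 112 and 115 CPM, above saline input at 85.2 and 71.3 CPM, while DSP-4 input at 92.0 and 77.0 CPM lay within the range of DSP-4 TRAP. *Slc1a3* was not called in saline (0.53, 95% interval -0.24 to 1.30, edgeR FDR 0.303) or in DSP-4 (0.52, -0.18 to 1.22, edgeR FDR 0.217). Without DSP-4 TRAP replicate 2 it was higher in DSP-4 (0.67, edgeR FDR 0.0288).

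*Glul* (chr1:153899944-153909723, plus strand) encodes glutamine synthetase, which turns the glutamate so collected into glutamine, and oligodendrocytes express it too. Its levels were 1814, 1598 and 2249 CPM in saline TRAP and 1563 and 1766 CPM in saline input. DSP-4 TRAP ranged from 1569 CPM through a median of 2004 CPM to 2441 CPM, and DSP-4 input stood at 1613 and 1434 CPM. The groups overlapped in both treatments. *Glul* was not called in saline (0.18, 95% interval -0.26 to 0.62, edgeR FDR 0.548) or in DSP-4 (0.39, -0.01 to 0.79, edgeR FDR 0.107). In DSP-4 it passed in 3 of the 13 fits that left out 1 library, namely when DSP-4 TRAP replicate 1, DSP-4 TRAP replicate 3 or saline TRAP replicate 12 was absent. It also passed there with DESeq2 (0.39, FDR 0.0732), without scaling factors (0.46, edgeR FDR 0.0590) and without mitochondrial genes (0.40, edgeR FDR 0.0862). A few percent of its exonic length overlaps other genes (*Teddm2* on the other strand, 3.49%, and *Mir8114*, 2.80%).

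In saline TRAP 19.5% of all genes were higher and 15.7% lower. Of 10 other transporters and enzymes of the glutamate-glutamine cycle, 5 were higher and 1 was lower there. The list median was 0.57, against -0.02 over all genes. The vesicular glutamate transporter of brainstem neurons *Slc17a6* (1.17), the neuronal glutamine carrier *Slc38a1* (0.92) and the neuronal glutamate transporter *Slc1a1* (0.61) were among those higher. The vesicular transporter *Slc17a7* (-1.20) was lower. Most of the members named here are neuronal genes.

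The water channel and the gap junction protein were both higher in TRAP. *Aqp4* (chr18:15389496-15410982, minus strand) encodes aquaporin-4, which is concentrated in endfeet around vessels. It stood at 175, 155 and 133 CPM in saline TRAP and at 101 and 63.5 CPM in saline input. In DSP-4 TRAP it went from 107 CPM through a median of 144 CPM to 178 CPM, against 68.0 and 63.7 CPM in DSP-4 input. TRAP lay above input in both treatments without overlap. The log2 fold change was 0.91 (SE 0.24, edgeR FDR 0.0118) in saline and 1.15 (SE 0.22, edgeR FDR 0.000764) in DSP-4.

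*Gja1* (chr10:56377330-56402513, plus strand) encodes connexin 43, the main gap junction protein of astrocytes. It had 224, 240 and 219 CPM in saline TRAP and 157 and 122 CPM in saline input. DSP-4 TRAP went from 171 CPM through a median of 219 CPM to 289 CPM, and DSP-4 input stood at 134 and 115 CPM. Again no TRAP library overlapped the inputs of its treatment. The log2 fold change was 0.71 (SE 0.20, edgeR FDR 0.0188) in saline and 0.85 (SE 0.19, edgeR FDR 0.00202) in DSP-4. Its paralog *Gjb6*, encoding connexin 30 of astrocytes, was not called in saline (0.09, edgeR FDR 0.761) or in DSP-4 (0.30, edgeR FDR 0.168).

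The saline calls of *Aqp4* and *Gja1* were lost without saline input replicate 12, with *Aqp4* at 0.61 (edgeR FDR 0.180) and *Gja1* at 0.54 (edgeR FDR 0.198). With the replicate block, *Aqp4* was at 1.08 (edgeR FDR 0.184) and *Gja1* at 0.86 (edgeR FDR 0.290) in saline, and *Gja1* at 0.61 (edgeR FDR 0.174) in DSP-4.

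Of 7 other genes of the endfoot complex and its partners, 4 were higher and 0 lower in saline TRAP by edgeR. The list median was 0.64, and 0 were lower at an unadjusted p under 0.05. Of all genes 19.5% were higher and 15.7% lower. The junction scaffold *Tjp1* (1.88) was 1 of the 4 higher. The others, *Utrn* (0.92), *Dag1* (0.64) and *Dtna* (0.57), belong to the complex that anchors aquaporin-4 to the basal lamina. All 4 are also expressed outside astrocytes, in endothelium or neurons among others. The vascular list of 7 genes had 1 higher, *Pdgfrb* (1.09), and a summed level of 104 to 157 CPM in saline TRAP and 109 to 123 CPM in saline input, and its part in the result was not tested.

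*Gfap* and *S100b*, the pair most used as protein markers of astrocytes, both lay lower in TRAP. *Gfap* (chr11:102887336-102900912, minus strand) encodes the intermediate filament of astrocytes. It stood at 243, 219 and 251 CPM in saline TRAP and at 327 and 367 CPM in saline input. In DSP-4 TRAP the lowest, median and highest values were 205, 234 and 280 CPM, and DSP-4 input had 350 and 363 CPM. Every TRAP library was below every input library. The log2 fold change was -0.55 (SE 0.17, edgeR FDR 0.0251) in saline and -0.59 (SE 0.15, edgeR FDR 0.00435) in DSP-4. The saline call was lost without saline input replicate 12 (-0.46, edgeR FDR 0.180), and with the replicate block the values were -0.53 (edgeR FDR 0.513) in saline and -0.66 (edgeR FDR 0.135) in DSP-4.

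*S100b* (chr10:76253853-76261159, plus strand) encodes a small calcium-binding protein that oligodendrocytes can also make. Its levels were 541, 582 and 387 CPM in saline TRAP and 779 and 628 CPM in saline input. DSP-4 TRAP went from 472 CPM through a median of 567 CPM to 708 CPM, below DSP-4 input at 752 and 712 CPM. Although no TRAP library overlapped the inputs of its treatment, the difference missed the threshold in saline (-0.48, 95% interval -0.94 to -0.03, edgeR FDR 0.108) and in DSP-4 (-0.34, -0.74 to 0.06, edgeR FDR 0.160). It passed in saline once DSP-4 TRAP replicate 2, DSP-4 TRAP replicate 3 or saline TRAP replicate 6 was left out, where the count of the 10 genes lower became 2. In DSP-4 it passed without DSP-4 TRAP replicate 2 (-0.39, edgeR FDR 0.0902) and without DSP-4 TRAP replicate 3 (-0.41, edgeR FDR 0.0846). Markers of myelinating oligodendrocytes were 4 of 10 lower in saline TRAP, among them *Mbp* (-0.95), where 15.7% of all genes were lower. By edgeR 0 were higher (1 at an unadjusted p under 0.05), where 19.5% of all genes were. The list median was -0.33, and these markers summed to 7033 to 7566 CPM in saline TRAP and 7848 to 8947 CPM in saline input. Their part in the *S100b* value was not tested.

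Of 3 measured filament partners of GFAP, synemin (*Synm*, 1.03) was higher, plectin (*Plec*, -1.73) was lower and vimentin (*Vim*) was at 0.34 (edgeR FDR 0.530). In DSP-4 the values were 1.04 for *Synm*, -2.60 for *Plec* and 0.24 for *Vim*.

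Neither of the cytosolic enzymes was called in saline. *Aldh1l1* (chr6:90486427-90600203, plus strand) encodes a folate enzyme widely used to label astrocytes. It had 37.5, 38.2 and 47.2 CPM in saline TRAP and 31.6 and 39.4 CPM in saline input, which overlapped (0.21, 95% interval -0.26 to 0.67, edgeR FDR 0.515). In DSP-4 it went from 33.1 CPM through a median of 46.6 CPM to 54.8 CPM in TRAP, against 33.1 and 33.3 CPM in input. This was called higher (0.50, SE 0.20, edgeR FDR 0.0569), but not without DSP-4 input replicate 2 (edgeR FDR 0.224), without DSP-4 input replicate 7 (edgeR FDR 0.221) or with the replicate block (0.59, edgeR FDR 0.197). Of its exonic length 11.1% overlaps *Gm15756* on the other strand, and the sources do not say whether counting used the strand.

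*Aldoc* (chr11:78322968-78327781, plus strand) encodes aldolase C, the brain aldolase of astrocytes and of some Purkinje cells. It had 2249, 2282 and 2363 CPM in saline TRAP, just above saline input at 2081 and 2092 CPM. DSP-4 TRAP went from 1800 CPM through a median of 2323 CPM to 2670 CPM, and DSP-4 input stood at 1925 and 1927 CPM. *Aldoc* was not called in saline (0.14, 95% interval -0.24 to 0.52, edgeR FDR 0.600) or in DSP-4 (0.26, -0.09 to 0.60, edgeR FDR 0.219), and passed in DSP-4 only without DSP-4 TRAP replicate 3 (0.32, edgeR FDR 0.0855) among the fits that left out 1 library. Its paralog *Aldoa* was at -0.16 in saline and -0.14 in DSP-4, neither called. Of 16 other glycolytic enzymes, 4 were higher in saline TRAP, led by *Pgk1* (1.29) and *Ldha* (0.86), and 1 was lower, *Hk1* (-0.79). The list median was 0.20, and of all genes 19.5% were higher and 15.7% lower.

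The transcription factor gene *Sox9* (chr11:112782224-112787760, plus strand), which in adult brain is largely kept to astrocytes and ependymal cells, was the least abundant of the 10 in input and the second most enriched. It had 32.7, 45.1 and 51.1 CPM in saline TRAP and 15.96 and 18.9 CPM in saline input. DSP-4 TRAP went from 39.4 CPM through a median of 50.1 CPM to 82.3 CPM, against 25.3 and 16.7 CPM in DSP-4 input. Neither treatment had overlapping groups. The log2 fold change was 1.30 (SE 0.32, edgeR FDR 0.00721) in saline and 1.36 (SE 0.29, edgeR FDR 0.00168) in DSP-4. It passed in every fit that left out 1 library, while with the replicate block it was at 1.45 (edgeR FDR 0.107) in saline and 1.48 (edgeR FDR 0.00571) in DSP-4. Of 10 other transcription factors of gliogenesis, *Nfib* (2.02), *Zbtb20* (1.63) and *Nfia* (1.16), which neurons also express, were higher in saline TRAP. The Notch target *Hes5* (-1.21) and *Id3* (-0.57) were lower, and the list median was -0.13. Of all genes 19.5% were higher and 15.7% lower.

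**Figure D2:**
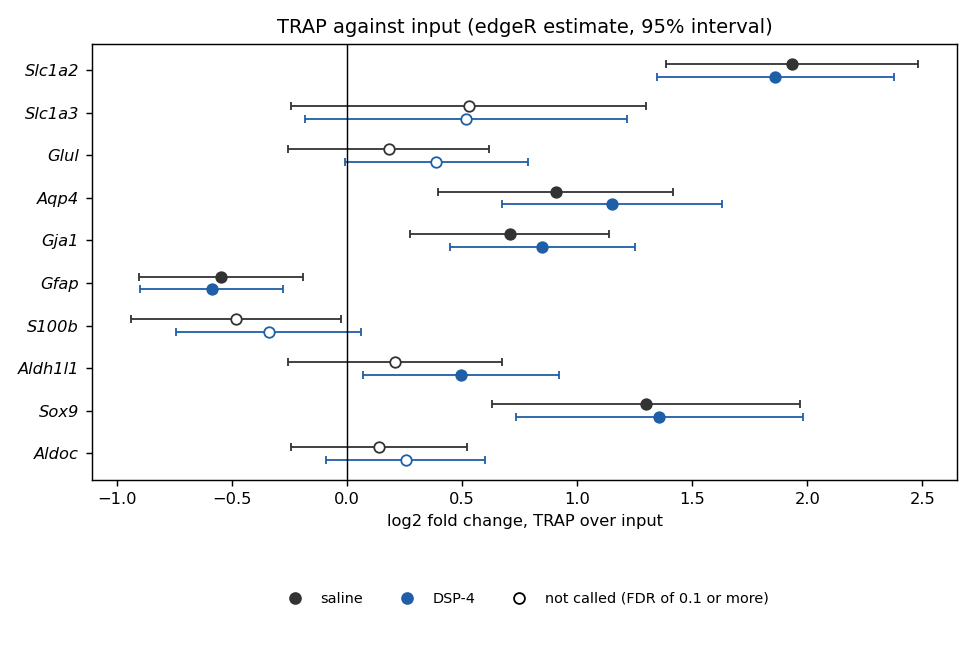
Log2 fold change of TRAP over input for each astrocyte gene in saline (black) and DSP-4 (blue), from edgeR, with 95% intervals; filled points passed an FDR of 0.1. *Slc1a2* lay at 1.93 and 1.86 and *Gfap* at -0.55 and -0.59, and the 2 treatments' intervals overlapped for every gene.

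The groups did not overlap for 6 genes above input and 2 below in saline, where 29.6% of all genes lay above and 30.2% below. In DSP-4, 4 lay above and 2 below, where 26.4% and 24.3% of all genes did so. By their numbers and the methods, replicates 2, 7 and 12 had TRAP and input from the same homogenate. The ratio of TRAP to input CPM was read within each. The ratio for *Slc1a2* was 2.24, 4.003 and 5.05 in replicates 2, 7 and 12, and that for *Sox9* was 3.25, 2.36 and 2.70. *Aqp4* (1.58, 2.20 and 2.09) and *Gja1* (1.27, 1.81 and 1.79) were above 1 in each of the 3 homogenates. *Gfap* (0.585, 0.670 and 0.682) and *S100b* (0.887, 0.664 and 0.617) were below 1 in each. *Slc1a3* was the only gene of the 10 on both sides of 1, at 0.593, 1.88 and 1.62. With the replicate number as a block, fitted across all genes, the count of the 10 genes called higher fell to 1 in saline and to 3 in DSP-4 and that of genes lower fell to 0 in both, while the genes called among all 12009 went from 4217 to 707 in saline and from 6135 to 3736 in DSP-4. The block leaves 1 saline pair and 2 DSP-4 pairs to set TRAP against input.

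DSP-4 TRAP replicate 2 had the lowest *Slc1a2*, *Slc1a3*, *Aqp4*, *Gja1* and *Gfap* of the 6 DSP-4 TRAP libraries and the highest *Sox9* and *Glul*. Its oligodendrocyte markers summed to 12221 CPM against 6241 to 8009 CPM in the other TRAP libraries, and the part of this in the result was not tested. DSP-4 TRAP replicate 8 had the highest *Slc1a2*, *Slc1a3*, *Aqp4* and *Gja1*. Without DSP-4 TRAP replicates 2 and 3, 8 of the 10 genes were higher and 2 were lower in DSP-4, and in saline, where these libraries enter only through the shared estimate of spread, 5 were higher and 2 were lower. More of all genes were called too, 31.1% higher and 31.2% lower in DSP-4 and 24.5% higher and 22.7% lower in saline.

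Per kilobase of exon, the order of the 10 genes in saline input ran *Aldoc* (639 CPM per kb), *Glul* (501), *S100b* (474), *Gfap* (82.3), *Gja1* (13.6), *Aqp4* (13.2), *Slc1a2* (12.97), *Slc1a3* (9.17), *Aldh1l1* (7.86) and *Sox9* (4.22). Neighbours whose libraries overlapped were *Glul* with *S100b*, *Gja1* with *Aqp4*, *Aqp4* with *Slc1a2*, and *Slc1a3* with *Aldh1l1*. In saline TRAP the first 3 kept their order, at 704 CPM per kb for *Aldoc*, 568 for *Glul* and 339 for *S100b*. *Slc1a2* moved up to 49.5 CPM per kb, overlapping *Gfap* at 56.3, and *Sox9* at 10.4 overlapped *Aldh1l1* at 9.07. Between them lay *Aqp4* at 24.8 and *Gja1* at 22.2, which overlapped, and *Slc1a3* at 13.2.

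A wider list of astrocyte genes held genes on both sides of input, at counts not above the shares of all genes. Among 24 further genes enriched in astrocytes, 3 were higher and 3 lower in saline TRAP. Of all genes 19.5% were higher and 15.7% lower. The list median was -0.02, equal to that of all genes at 2 decimals. The potassium channel gene *Kcnj10* (0.96) and the bicarbonate transporter *Slc4a4* (1.02) were among the listed genes that were higher. The neurotensin receptor *Ntsr2* (-1.11), the membrane protein gene *Atp1b2* (-0.88) and the lipid carrier *Apoe* (-0.58) were lower. In DSP-4 the list had 6 higher and 5 lower, with a median of -0.05, where 27.3% of all genes were higher and 23.8% lower. The summed level of the 10 genes was 5857 to 6562 CPM in saline TRAP and 5316 to 5334 CPM in saline input. *Aldoc* and *Glul*, neither called in saline, made up most of that sum. Their means were 2298 and 1887 CPM in saline TRAP and 2086 and 1665 CPM in saline input. The summed level of the 24 further genes was 6696 to 6833 CPM in saline TRAP and 6832 to 7009 CPM in saline input.

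Other cell types were read in the same way, beside 19.5% of all genes higher and 15.7% lower in saline TRAP. General neuronal markers were 5 of 10 higher and 0 lower in saline TRAP by edgeR (0 lower at an unadjusted p under 0.05), with a median of 0.35, beside 0.37 for the 10 astrocyte genes. Microglial markers had 0 of 10 higher by edgeR (0 at an unadjusted p under 0.05) and 1 lower, *C1qc* (-0.85), with a median of -0.11. The 6 genes of the oligodendrocyte lineage had 1 higher, *Cspg4* (1.37), and a median of -0.25. The 5 ependymal and choroid plexus genes had 1 lower, *Foxj1* (-1.36), and their summed level spread from 72.8 to 2843 CPM among the TRAP libraries and from 99.6 to 3588 CPM among the inputs.

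**Figure D3:**
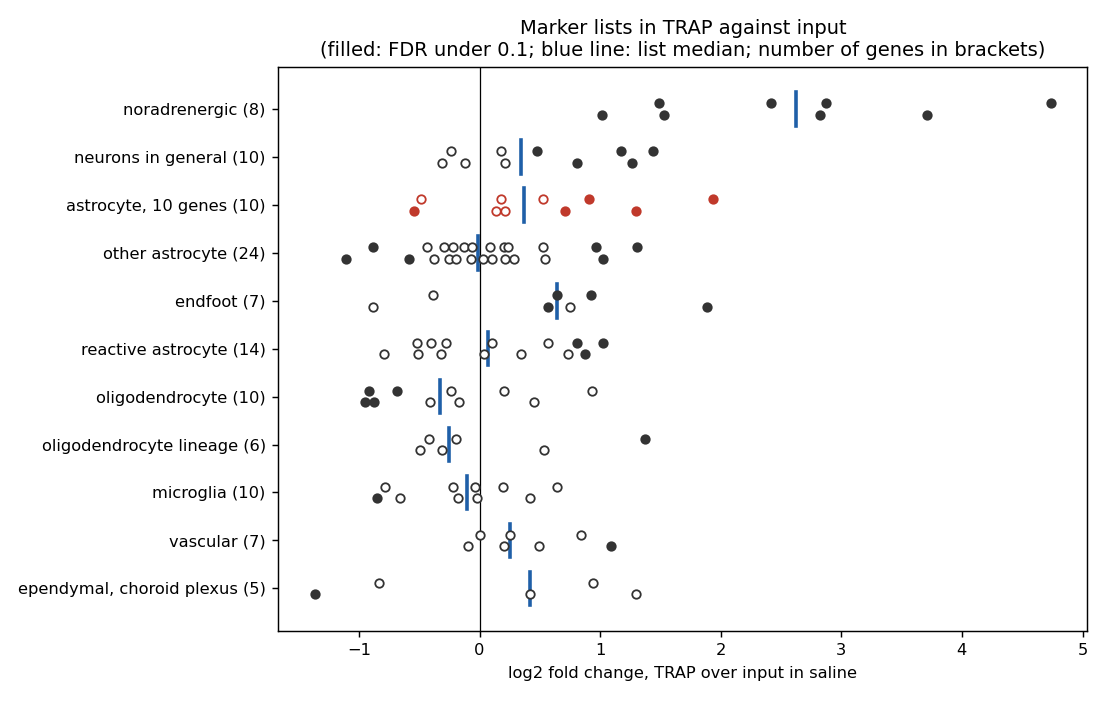
Log2 fold change of TRAP over input in saline for the genes of each marker list, 1 point per gene, filled where FDR was under 0.1, with the median of each list as a blue line and the 10 astrocyte genes in red. Noradrenergic genes had a median of 2.62, and the 10 astrocyte genes (0.37) and the neuronal genes (0.35) had medians close to each other.

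Transcript length and base composition moved with TRAP over input. Across 11558 genes with an annotated transcript, which are not independent replicates, Spearman's rho of the saline log2 fold change was 0.46 with the length of the longest transcript and -0.42 with its GC content. Over the 10 astrocyte genes rho was 0.85 with length and -0.61 with GC content, as a description over 10 points. The *Slc1a2* transcript of 11595 bases was at the 98.5th percentile of length, and the *S100b* transcript of 1484 bases at 11.03, against a median of 3472 bases. *Gfap* had 55.5% GC and *Aqp4* 41.4%, against a median of 49.7%.

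Set against genes in the same decile of GC content, the saline log2 difference became smaller for *Aqp4* (0.37), *Gja1* (0.36) and *Gfap* (-0.34) and larger for *Aldh1l1* (0.42) and *Aldoc* (0.26). In DSP-4 the values were 0.19 for *Aqp4*, 0.20 for *Gja1*, -0.26 for *Gfap*, 0.83 for *Aldh1l1*, 0.46 for *Aldoc*, 0.09 for *Slc1a3* and 1.43 for *Slc1a2*. The values for *Sox9* were 1.24 in saline and 1.23 in DSP-4. A further alternative, added after seeing the data, set each gene against those in the same decile of length. It gave 1.17 in saline and 1.08 in DSP-4 for *Slc1a2*, -0.32 and -0.42 for *Gfap*, and -0.15 and 0.0026 for *S100b*. The difference became larger for *Glul* (0.41 and 0.56) and *Aldoc* (0.36 and 0.43), and for *Aqp4* it was 0.63 and 0.84. These are values without a test.

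**Figure D4:**
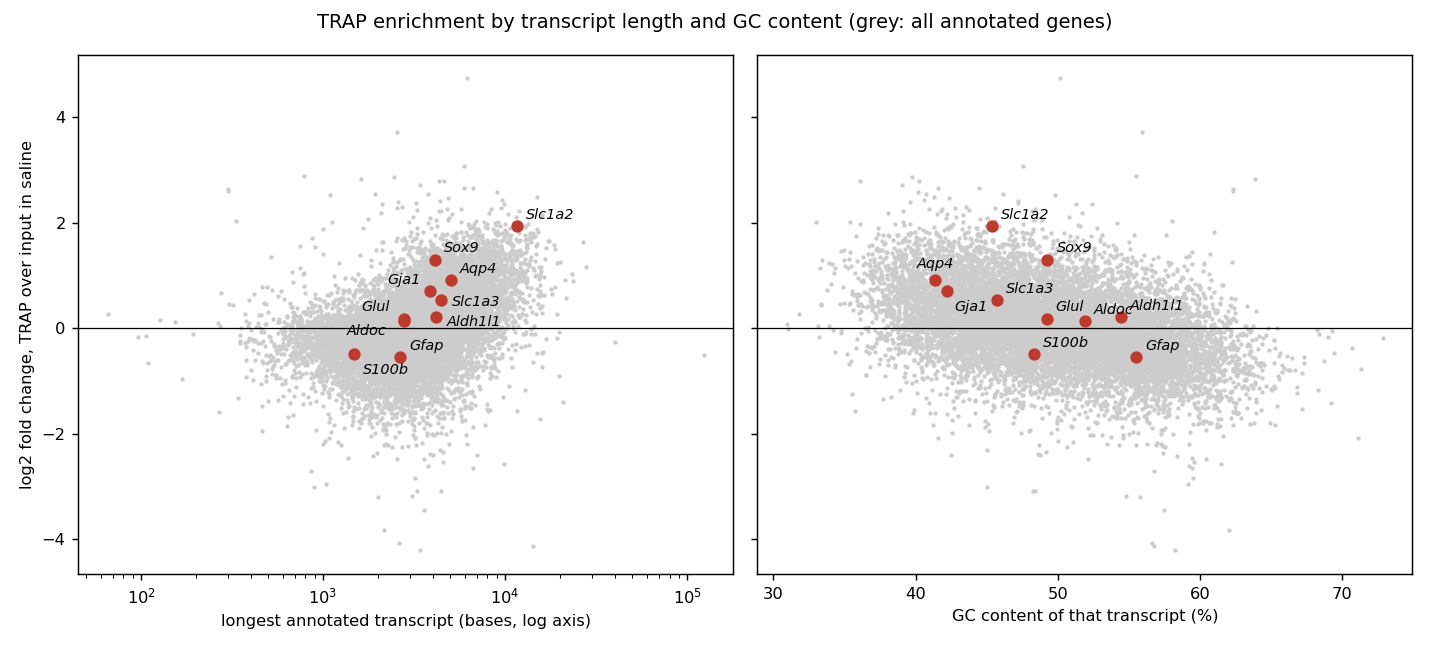
Log2 fold change of TRAP over input in saline against the length of the longest annotated transcript (left, bases, log axis) and its GC content (right, percent), with all annotated genes in grey and the 10 astrocyte genes in red. The long *Slc1a2* transcript (11595 bases) sits at the top and the short *S100b* transcript (1484 bases) near the bottom of the red points.

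DSP-4 against saline was compared next. None of the 10 genes was called in TRAP in either direction by edgeR, 0 had an unadjusted p under 0.05, and 0 were called by limma or DESeq2. Among all genes 0% were called higher and 0.025% lower, that is 3 noradrenergic genes, *Slc6a2*, *Dbh* and *Gal*. At an unadjusted p under 0.05 the counts over all genes were 75 higher and 151 lower. The log2 fold changes of the 10 ran from -0.09 for *Aqp4* to 0.32 for *Sox9*, with a median of 0.03, and the edgeR FDR was 0.9998 for each. Groups overlapped for each of the 10, where 0.716% of all genes lay wholly above and 0.566% wholly below.

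The intervals show how large a change in TRAP RNA these libraries could have hidden. They do not bound a change in astrocytes around the LC, which were not sampled apart. *Gfap* differed by -0.01 (95% interval -0.32 to 0.30) and *S100b* by 0.19 (-0.19 to 0.57). *Slc1a2* was at -0.01 (-0.42 to 0.40), *Gja1* at -0.03 (-0.38 to 0.32), *Glul* at 0.07 (-0.28 to 0.42), *Aldh1l1* at 0.18 (-0.21 to 0.58) and *Aldoc* at -0.01 (-0.32 to 0.31). Wider intervals belonged to *Slc1a3* (0.09, -0.54 to 0.73) and *Sox9* (0.32, -0.19 to 0.82), and *Aqp4* was at -0.09 (-0.47 to 0.29). Over the 84 ways to split 6 and 3 libraries, an exact permutation test (two-sided, on the difference in mean log2 CPM, smallest possible p 0.0119) gave p = 0.940 for *Gfap* and p = 0.310 for *S100b*.

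In whole-hindbrain input 0 of the 10 were called by edgeR, limma or DESeq2, 0 had an unadjusted p under 0.05, and 0% of all genes were called (17 higher and 289 lower at an unadjusted p under 0.05). The log2 fold changes ran from -0.33 for *Aqp4* to 0.27 for *Sox9*. *Gfap* was at 0.04 (95% interval -0.35 to 0.43), which concerns the whole dissected hindbrain and does not bound a change confined to the LC region. Only *Aldoc* had groups that did not overlap, with DSP-4 below saline, and with 2 libraries against 2, 26.3% of all genes lay wholly below and 18.2% wholly above. The TRAP and input comparisons of DSP-4 set no library in common against each other, but they are not independent. Replicates 2, 7 and 12 gave both fractions, and the input fit took its spread from all 13 libraries.

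The difference between the enrichments in DSP-4 and saline was tested as an interaction. It was called for 0 of the 10 genes and for 0% of all genes by edgeR, with 0 of the 10 at an unadjusted p under 0.05, and 0 of the 10 were called by limma or DESeq2. The differences ran from -0.07 for *Slc1a2* to 0.29 for *Aldh1l1*. The interval for *Slc1a2* was -0.76 to 0.61 and that for *Gfap* was -0.52 to 0.44. The call of *Aldh1l1* in DSP-4 and not in saline therefore was not shown to be a difference between treatments (0.29, 95% interval -0.33 to 0.91).

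**Figure D5:**
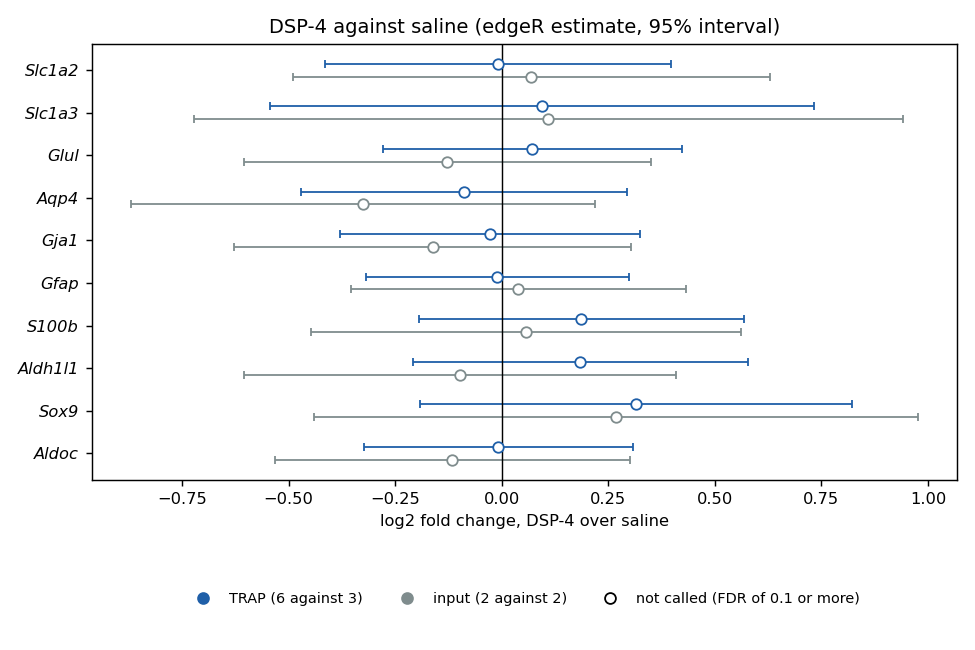
Log2 fold change of DSP-4 over saline for each astrocyte gene in TRAP (blue, 6 libraries against 3) and in input (grey, 2 against 2), from edgeR, with 95% intervals; open points did not pass an FDR of 0.1. All 20 intervals include 0, and those of *Slc1a3* and *Sox9* are wide in both fractions.

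Genes that reactive astrocytes are known to induce were read beside *Gfap*. Of 30 listed, 14 were in the table. The others, *Lcn2*, *Timp1* and *Cxcl10* among them, were absent from it and could not be read, and the table had been filtered on low counts. Of the 14, 0 were called in TRAP between DSP-4 and saline by edgeR, where 0.025% of all genes were called. The list median was -0.10. At an unadjusted p under 0.05, 1 was higher, the class I histocompatibility gene *H2-T23* (0.67), and 1 was lower, *S100a10* (-0.55), which encodes an annexin partner. The complement gene *C4b* was at 0.43 (95% interval -0.11 to 0.97) and *Serpina3n*, encoding a protease inhibitor, at -0.40 (-1.16 to 0.36). In input 0 of the 14 were called by edgeR, with 1 higher and 0 lower at an unadjusted p under 0.05. *H2-T23* lay higher in DSP-4 input too, at 20.6 and 21.9 CPM against 6.99 and 17.4 CPM in saline input. With 2 libraries against 2, 18.2% of all genes lay wholly above. *S100a10* overlapped, at 73.7 and 96.0 CPM in DSP-4 input and 82.8 and 90.1 CPM in saline input. Of the same 14, 3 were higher in saline TRAP than in saline input, *S100a10* (0.87), *Fbln5* (1.02) and *Cp* (0.81), where 19.5% of all genes were. By edgeR 0 were lower (0 at an unadjusted p under 0.05), where 15.7% of all genes were. This comparison and that of DSP-4 with saline in TRAP share the saline TRAP libraries. Microglial markers in TRAP had a median DSP-4 difference of 0.33 with 0 of 10 called by edgeR and 0 at an unadjusted p under 0.05, and summed to 216 to 349 CPM in DSP-4 TRAP and 197 to 225 CPM in saline TRAP.

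Patterns across the 13 libraries were compared by Pearson's r of log2 CPM, over 11839 genes outside the marker lists. Closest to *Slc1a2* were *Ttc39b* (r = 0.984), *Dner* (0.983) and *Nalcn* (0.983), and of the other 9 astrocyte genes *Gja1* (0.956). Closest to *Gfap* were *Ino80b* (0.968), *Evl* (0.964) and *Dnajb12* (0.962), with *S100b* the nearest of the 9 at 0.433. Closest to *Sox9* were *Zbtb4* (0.992), *Prkce* (0.978) and *Inpp4a* (0.978). The points share the split into TRAP and input, and r is given as a description.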

How the data were processed

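RNA of 9 TRAP and 4 input libraries was sequenced. The authors used STAR on the mm10 build and featureCounts for gene counting (versions not given in the sources used here). The deposited table is called normalized but holds whole numbers with unequal totals for 12009 genes, and these were tested as counts. No gene had a mean count under 78.4, which shows a filter on low counts before deposit. The authors removed 2 saline samples in which TRAP did not enrich *Slc6a2* above 10-fold. This selection was on the pulldown and on saline samples only. It therefore bears on every comparison with saline TRAP, for *Slc6a2* and for the astrocyte genes, and its effect was not tested. Of the gene identifiers, 21 were plain numbers and none of these is named. Unused columns of sample values numbered 0.

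TMM factors scaled the libraries, and edgeR 4.0.16 (R 4.3.3) gave two-sided quasi-likelihood p-values, called at FDR under 0.1, with a prior count of 1 in the fits and in log2 CPM. DESeq2 1.42.0 and limma 3.58.1 served as alternatives. DSP-4 over saline in TRAP was fitted on the 9 TRAP libraries and the rest on all 13. Each replicate was a separate pool of 2 mice by the methods. The members and the 14 marker lists were chosen with earlier results of these data known. The text names the 10 members and, of each list, up to 4 genes with the smallest p, and paralogs of members; 1 listed gene is not reported here. Gene models and coordinates were GENCODE vM21 on GRCm38, matched by symbol for 11564 genes. Replicate numbers 2, 7 and 12 were taken to pair TRAP with input, since the methods take both from 1 homogenate. Deviations from the group means correlated at 0.181, 0.266 and 0.295 in these pairs. Libraries of unlike number reached 0.382 (saline TRAP replicate 4 with saline input replicate 5) and 0.175 (DSP-4 TRAP replicate 9 with DSP-4 input replicate 7). With 2 inputs a group, their deviations mirror each other, so these correlations cannot decide the pairing. Alternatives were other scalings, filters, prior counts, tools, the replicate block, GC content, and leaving out each library. Scripts were tested on simulated data.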

Additional observations from a re-analysis of the deposited data

How the results depend on the processing

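Direction and call of *Slc1a2* in TRAP over input were kept under each alternative with a test. With the replicate block the 10 genes called went to 1 higher and 0 lower in saline (707 of all genes called) and to 3 higher and 0 lower in DSP-4 (3736 of all genes); no call other than those given in the report changed, and the interaction reversed for *Aqp4* (-0.17) and *Gja1* (-0.25), both uncalled. The block leaves few pairs, so a call lost under it does not by itself show a smaller effect. In saline 2 of the 10 were lower, *S100b* added, with DESeq2, upper-quartile scaling, a count of at least 100 in every library, or without DSP-4 TRAP replicates 2 and 3. Without those libraries 8 were higher and 2 lower in DSP-4, where 31.1% of all genes were higher and 31.2% lower. Over all genes, DSP-4 over saline in TRAP had 5 calls with DESeq2, 1 without scaling factors and 1 without mitochondrial genes. When 1 library at a time was left out, the 10 genes gave 2 to 4 higher and 0 to 2 lower in saline (2100 to 5185 of all genes) and 4 to 7 higher and 1 to 2 lower in DSP-4 (3678 to 6914 of all genes). The lowest count in saline was without saline input replicate 12, with 2431 without saline input replicate 5, and the lowest in DSP-4 was without DSP-4 input replicate 7. DSP-4 over saline in TRAP then gave 0 to 3 calls over all genes. The cause of these shifts was not tested.

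Reversals touched uncalled log2 differences, some near 0 and some not, such as *Aqp4* and *Sox9* in input and the *Aqp4* interaction. In DSP-4 over saline in TRAP, *Aldoc* was at 0.000182 with DESeq2, 0.0123 with upper-quartile scaling, 0.0272 without scaling factors, 0.00847 without mitochondrial genes, 0.000393 with the count minimum of 100 and 0.000302 in the 13-library fit. *Slc1a2* was at 0.0128, 0.0254 and 0.00557 and *Gfap* at 0.0117, 0.0239 and 0.0062 with upper-quartile scaling, without scaling factors and without mitochondrial genes, *Gja1* was at 0.00957 without scaling factors, and *Slc1a3* at -0.0242 with limma. Without DSP-4 TRAP replicates 2 and 3, *Aldoc* was at 0.105, *Slc1a2* at 0.119, *Gfap* at 0.00539, *Gja1* at 0.0867 and *Aqp4* at 0.00705, and the interaction was 0.0498 for *Slc1a2*, 0.271 for *Slc1a3*, -0.00129 for *S100b* and -0.138 for *Sox9*. With 1 library left out, the range in TRAP was -0.0552 to 0.0558 for *Aldoc*, -0.175 to 0.0147 for *Aqp4*, -0.0579 to 0.0397 for *Gfap*, -0.116 to 0.0417 for *Gja1*, -0.0275 to 0.227 for *Glul*, -0.13 to 0.112 for *Slc1a2* and -0.114 to 0.246 for *Slc1a3*. In input it was -0.243 to 0.0684 for *Aldh1l1*, -0.623 to 0.0551 for *Aqp4*, -0.0383 to 0.125 for *Gfap*, -0.331 to 0.0339 for *Gja1*, -0.0894 to 0.223 for *S100b*, -0.119 to 0.275 for *Slc1a2*, -0.0125 to 0.247 for *Slc1a3* and -0.048 to 0.536 for *Sox9*. For the interaction it was -0.129 to 0.543 for *Aqp4*, -0.127 to 0.0442 for *Gfap*, -0.0464 to 0.312 for *Gja1*, -0.0175 to 0.289 for *S100b*, -0.27 to 0.124 for *Slc1a2*, -0.215 to 0.141 for *Slc1a3* and -0.200 to 0.384 for *Sox9*. In the exact permutation test the difference ranged over -0.0661 to 0.0308 for *Gfap* and 0.0261 to 0.319 for *S100b*. With 2 input libraries a group, an arm left with 1 library was assumed to vary like the others. None of the 10 genes had a count of 0 in any library.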
